A study of Capra hircus with 10 samples.

Results

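The ovarian surface epithelium genes were followed here in whole goat ovaries of the luteal and follicular phases. The set was named as KRT7, KRT8, KRT18, KRT19, EPCAM, CDH1, UPK3B, LGR5 and LHX9. A gene was taken where its symbol stands on a protein-coding row of the transcript table, and its transcripts were summed. This found 8 of the 9 genes, among 20587 protein-coding gene symbols, and UPK3B was not analysed here. RNA from 10 ovaries of Anhui white goats was sequenced, 5 from the luteal phase and 5 from the follicular phase, with 1 library per ovary. No treatment or genotype is named for either phase, the ovaries came from a slaughterhouse, and neither ages nor cycle days are given in the sources used here. No label says that the ovaries of a phase came from separate goats, so the p-values measure the spread between these ovaries.

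The ovarian surface epithelium is a single cell layer of mesothelial origin that covers the ovary, opens at ovulation and closes again afterwards. Its cells hold keratin filaments, which are built from a type II keratin, such as KRT7 or KRT8, and a type I keratin, such as KRT18 or KRT19. Epithelial cells adhere to each other through CDH1, which is E-cadherin, and carry the surface protein EPCAM. LGR5 is a receptor for R-spondins that marks stem cells in several epithelia and lies in the ovarian surface of the mouse. LHX9 is a LIM homeobox transcription factor that the early mouse gonad needs in order to form. None of these genes belongs to the surface layer alone. Oocytes also carry CDH1 and EPCAM, and other gonadal cells carry LHX9.

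Values are FPKM, which are fragment numbers divided by transcript length and by library size. Their sum over all transcripts was 452508 to 503276 in luteal phase ovaries and 492324 to 540124 in follicular phase ovaries. No read counts per ovary were used here, so the depth behind each ovary's values is unknown. The phases were compared by two-sided limma fits to log2(FPKM + 0.1), so that a positive value means higher in the luteal phase. Adjustment (Benjamini-Hochberg) was over 15359 genes, those that reached an FPKM of 0.1 in 5 or more ovaries. All 8 genes found in the table passed this filter. Fold changes on this scale understate the change of low genes. A gene is called where its adjusted p is under 0.05.

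LHX9, KRT19 and KRT7 were lower in the luteal phase, by 2.51-fold, 2.11-fold and 1.89-fold. The KRT7 call held in 7 alternative fits and was lost in 13. CDH1 was 2.27-fold higher in the luteal phase. KRT8, KRT18, EPCAM and LGR5 did not pass the test. In bulk tissue, fewer cells of a type and less RNA per cell cannot be told apart. The 4 calls are 50% of the 8 genes, beside 43.7% of all genes tested, and the 3 lower calls stand beside 27.8% of all genes called lower and the 1 higher call beside 15.9% called higher. The count of calls is thus near the background, while the direction was not shared among the genes. Their median log2 fold change was -0.37, beside -0.14 for all genes tested, and their median absolute log2 fold change was 0.73, beside 0.34.

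**Figure D1:**
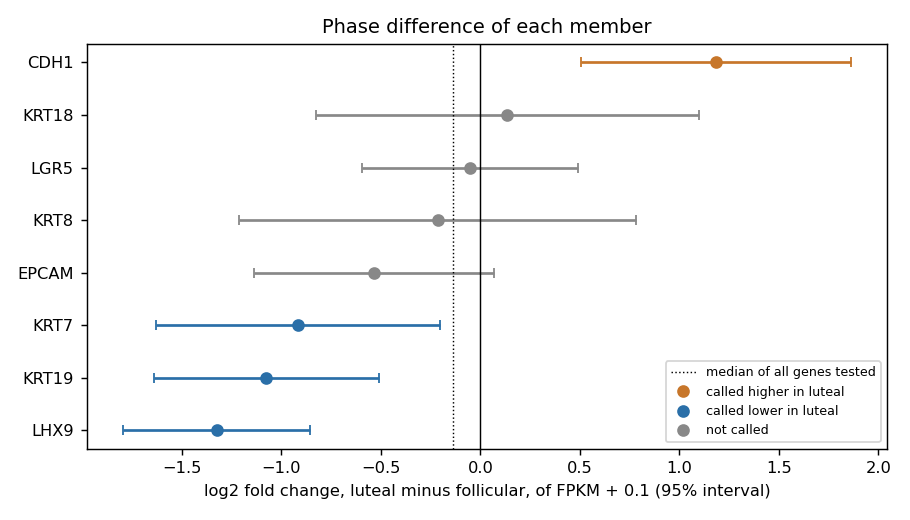
Log2 fold change of FPKM + 0.1 (horizontal axis, luteal minus follicular) of the 8 surface epithelium genes, with points for limma's estimate, bars for its 95% interval and a dotted line for the median of all genes tested, -0.14. CDH1 stands on the luteal side at 1.18, LHX9, KRT19 and KRT7 stand on the follicular side, and the intervals of the other genes include 0.

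By level, KRT8 was the most abundant of the 8 genes, with a mean FPKM of 9.52 over the 10 ovaries, which exceeds 67.9% of the 19785 genes above 0. LHX9 followed at 5.63 and KRT18 at 4.94. CDH1 (1.56), EPCAM (1.3), KRT19 (0.839), KRT7 (0.496) and LGR5 (0.209) lay lower, and LGR5 exceeded 25.9% of genes. Neighbours at the top of this order were not separated in every ovary. KRT8 was above LHX9 in 4 of 5 luteal and 2 of 5 follicular phase ovaries. LHX9 was above KRT18 in 1 of 5 luteal and 4 of 5 follicular phase ovaries. CDH1 was above EPCAM in 4 of 5 luteal phase ovaries and in 1 of 5 follicular phase ovaries. EPCAM was above KRT19 in 10 of 10 ovaries, and KRT19 above KRT7 in 9 of 10.

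**Figure D2:**
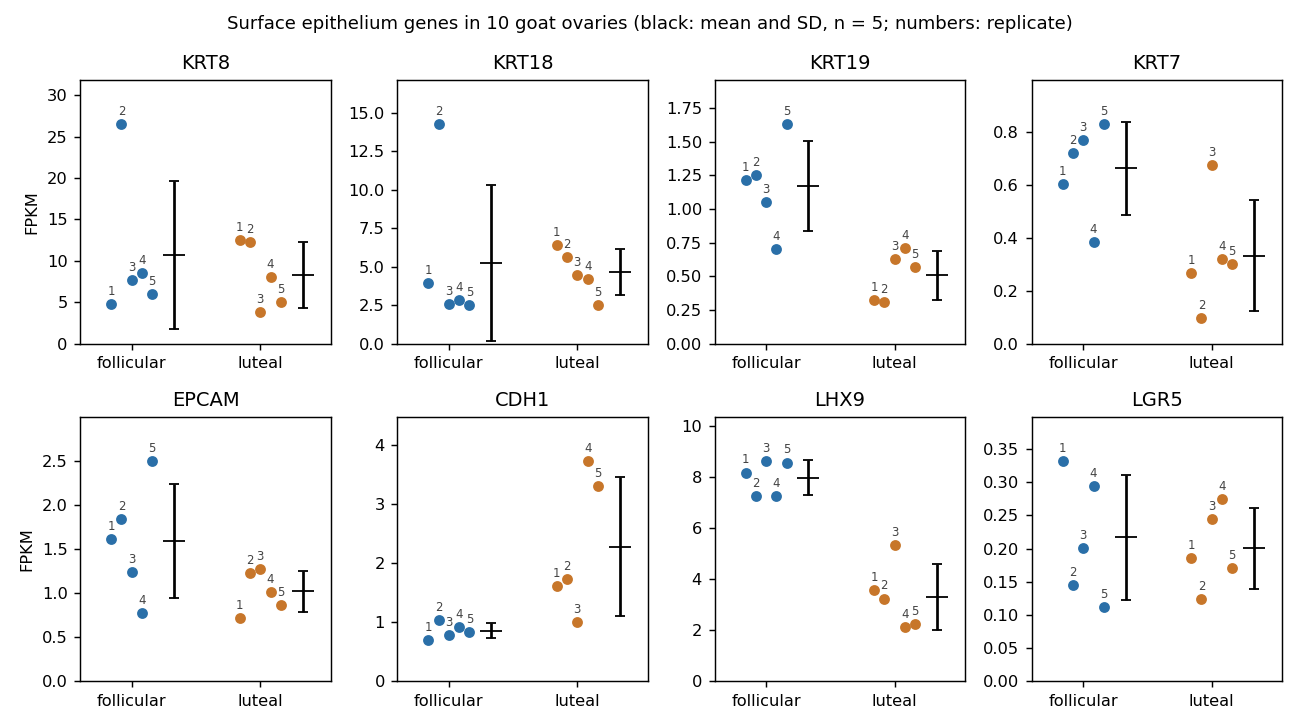
FPKM (vertical axes, from 0, a scale of its own for each gene) of the 8 genes in each ovary, with replicate numbers beside the points and the mean and SD of 5 ovaries in black. LHX9 is the gene whose phases do not overlap, CDH1 spreads from 0.996 to 3.73 in the luteal phase, and follicular phase replicate 2 stands apart for KRT8 and KRT18.

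LHX9 (gene 102171729), the transcription factor of the set, showed the clearest difference. Its FPKM in follicular phase replicates 1 to 5 was 8.16, 7.26, 8.61, 7.24 and 8.56. In luteal phase replicates 1 to 5 it was 3.55, 3.23, 5.31, 2.11 and 2.24. Every luteal phase ovary lay below every follicular phase ovary, which held for 28.4% of all genes tested in one direction or the other. Mean LHX9 was 3.29 ± 1.29 in luteal and 7.97 ± 0.677 in follicular phase ovaries (SD, n = 5 each). On the log2 scale it fell by 1.33, with a standard error of 0.21 (limma adjusted p = 0.000657). The ovaries of the follicular phase were alike, with an SD of 8.50% of the mean, while the luteal phase SD was 39.3% of the mean.

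LHX9 is listed with 2 transcripts, and they fell together. XM_018060811.1 had a log2 fold change of -1.26 (limma adjusted p = 0.00539 over all transcripts) and XM_018060812.1 one of -1.34 (adjusted p = 0.00540). XM_018060811.1 made up 48.3 ± 6.12% of luteal phase LHX9 and 46.8 ± 3.11% of follicular phase LHX9 (SD, n = 5 each). The fall in the sum was thus not carried by a single transcript. Over all transcripts of the 8 genes, 9 of 10 passed the filter and 4 were called, beside 17.3% of all transcripts tested. That share and the adjustment cover noncoding transcripts too, while the transcripts of the 8 genes are all protein-coding. The count was 2 without luteal phase replicate 2 or 5 or without follicular phase replicate 1, 3 or 5. CDH1 was the 1 called higher, beside 7.47% of all transcripts, and KRT19 and both LHX9 transcripts were the 3 called lower, beside 9.82%. KRT7, with its single transcript, was not called there (limma adjusted p = 0.114).

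CDH1 (gene 102170451), the cadherin of epithelial adherens junctions, moved the other way. Its FPKM in follicular phase replicates 1 to 5 was 0.692, 1.03, 0.779, 0.910 and 0.836. In luteal phase replicates 1 to 5 it was 1.61, 1.73, 0.996, 3.73 and 3.32. Of the luteal phase ovaries, 4 of 5 lay above every follicular phase ovary, and replicate 3 lay just inside the follicular range. Mean CDH1 was 2.28 ± 1.18 in luteal and 0.849 ± 0.127 in follicular phase ovaries (SD, n = 5 each), and it rose by 1.18 on the log2 scale with a standard error of 0.31 (limma adjusted p = 0.00991). The luteal phase ovaries thus differed among themselves far more than the follicular phase ovaries, with replicates 4 and 5 highest.

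Luteal phase ovaries took opposite orders for CDH1 and LHX9. Among them, replicate 4 was highest for CDH1 and lowest for LHX9, replicate 5 was next in both orders, and replicate 3 was lowest for CDH1 and highest for LHX9. In the follicular phase the orders were not fully opposite, since replicate 1 was lowest for CDH1 but the third for LHX9. With log2(FPKM + 0.1) centred on its phase mean, Pearson's r over the 10 ovaries was -0.97 (exact permutation of ovaries within phases, two-sided p = 0.00125, adjusted p = 0.0350 over the 28 pairs of the 8 genes). Spearman's rho was -0.88 (exact permutation p = 0.0139, adjusted p = 0.211). Without the 2 ovaries farthest from the CDH1 median, luteal phase replicates 3 and 4, r was -0.94. The adjusted p for r was 0.179 after the ovaries were shifted to a common median, where r was -0.94 (exact permutation p = 0.00639).

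**Figure D3:**
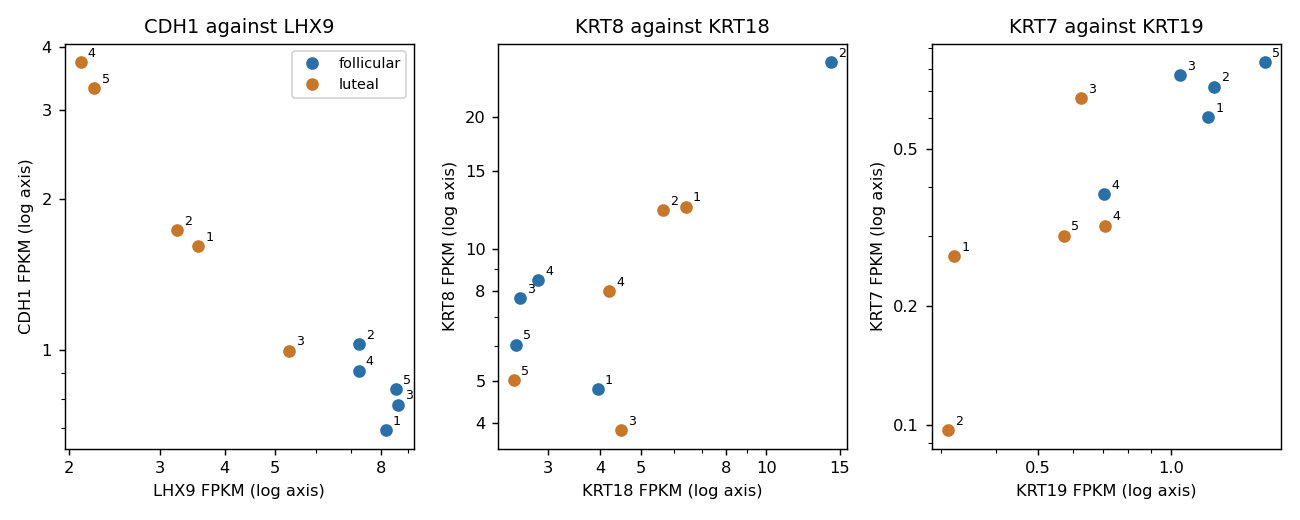
FPKM of pairs of surface epithelium genes in each ovary (log axes, 1 point per ovary, replicate numbers beside the points, blue for follicular and orange for luteal). CDH1 falls as LHX9 rises among the 5 luteal phase ovaries, follicular phase replicate 2 is at the top right for KRT8 and KRT18, and luteal phase replicate 2 is lowest for KRT7.

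KRT19 (gene 106501743), a type I keratin, was lower in the luteal phase. Follicular phase replicates 1 to 5 had an FPKM of 1.21, 1.25, 1.05, 0.705 and 1.63. Luteal phase replicates 1 to 5 had 0.322, 0.311, 0.625, 0.708 and 0.572. The phases met at a single point, where luteal phase replicate 4 and follicular phase replicate 4 were nearly equal. Mean KRT19 was 0.508 ± 0.181 in luteal and 1.17 ± 0.337 in follicular phase ovaries (SD, n = 5 each), so that it fell by 1.08 on the log2 scale with a standard error of 0.26 (limma adjusted p = 0.00647).

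KRT7 (gene 102184596), a type II keratin of simple epithelia, was also lower, with less certainty. Follicular phase replicates 1 to 5 had an FPKM of 0.602, 0.720, 0.769, 0.384 and 0.830. Luteal phase replicates 1 to 5 had 0.268, 0.0966, 0.673, 0.319 and 0.301. In 4 of 5 luteal phase ovaries KRT7 lay below the follicular range, and luteal phase replicate 3 lay well inside it. Mean KRT7 was 0.332 ± 0.210 in luteal and 0.661 ± 0.176 in follicular phase ovaries (SD, n = 5 each), and its log2 value fell by 0.92 with a standard error of 0.33 (limma adjusted p = 0.0402). The call was lost when the ovaries were shifted to a common median (log2 fold change -0.83, adjusted p = 0.0588), by quantile normalization (-0.79, adjusted p = 0.0616) and on the TPM scale (-0.94, adjusted p = 0.0762), and in 8 of the 10 limma fits that left out 1 ovary, where the adjusted p was up to 0.0830 and the log2 fold change between -0.94 and -0.67. It held without luteal phase replicate 3 (0.00853) and without follicular phase replicate 4 (0.0280).

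KRT8 (gene 102182762), the main type II keratin of simple epithelia, was not called. Follicular phase replicates 1 to 5 had an FPKM of 4.79, 26.6, 7.70, 8.48 and 6.04. Luteal phase replicates 1 to 5 had 12.5, 12.3, 3.85, 8.0 and 5.01. Follicular phase replicate 2 stood far above every other ovary. Of the rest, luteal phase replicates 1 and 2 were highest and luteal phase replicate 3 was lowest. The log2 fold change was -0.22, with a 95% interval from -1.21 to 0.78 (limma adjusted p = 0.723). It was 0.18 without follicular phase replicate 2 (adjusted p = 0.686).

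KRT18 (gene 102181566), the type I partner of KRT8, had the same high ovary. Follicular phase replicates 1 to 5 had an FPKM of 3.94, 14.3, 2.57, 2.84 and 2.52. Luteal phase replicates 1 to 5 had 6.4, 5.66, 4.49, 4.19 and 2.49. Apart from follicular phase replicate 2, 4 of 5 luteal phase ovaries were above every follicular phase ovary. The log2 fold change was 0.13, with a 95% interval from -0.83 to 1.10 (limma adjusted p = 0.821). It was 0.59 without follicular phase replicate 2 (adjusted p = 0.0798). KRT8 and KRT18 have processed copies in mammalian genomes, and it is not known how reads that match several copies were assigned, so their values are uncertain.

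No pair of keratins passed the test after adjustment over the 28 pairs, and the 3 other pairs with an unadjusted p under 0.05 are given here. The phase-centred r of KRT8 and KRT18 was 0.79 (exact permutation p = 0.0374, adjusted p = 0.271), with a rho of 0.56 (exact permutation p = 0.110, adjusted p = 0.614) and an r of 0.61 without follicular phase replicate 2 and luteal phase replicate 3. For KRT7 and KRT19 r was 0.74 (exact permutation p = 0.0140, adjusted p = 0.195), with a rho of 0.77 (exact permutation p = 0.0151, adjusted p = 0.211) and an r of 0.77 without luteal phase replicates 2 and 3. KRT19 and EPCAM gave an r of 0.67 (exact permutation p = 0.0388, adjusted p = 0.271), with a rho of 0.65 (exact permutation p = 0.0619, adjusted p = 0.578) and an r of 0.81 without follicular phase replicate 4 and luteal phase replicate 2. Over all 28 pairs the median r was -0.05, and 11 were positive.

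In RefSeq's annotation of ARS1.2, a goat assembly, KRT18, KRT8 and KRT7 lie in a single keratin cluster, with KRT18 and KRT8 side by side among the protein-coding genes. From KRT18 to KRT7 it holds 31 protein-coding genes, and all 31 are in the table. A mean FPKM of at least 0.1 in either phase was reached by 5 of them, namely KRT18, KRT8, KRT5, LOC102185150 and KRT7. The other 26 stayed at or below a phase mean of 0.0969. KRT5, a keratin of basal cells, had a mean of 0.290 ± 0.133 among luteal and 0.285 ± 0.291 among follicular phase ovaries (SD, n = 5 each). Within the cluster KRT8 and KRT18 had the highest levels in both phases.

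EPCAM (gene 102181044), the epithelial surface protein, was not called. Follicular phase replicates 1 to 5 had an FPKM of 1.61, 1.84, 1.23, 0.772 and 2.50. Luteal phase replicates 1 to 5 had 0.712, 1.22, 1.27, 1.02 and 0.859. All luteal phase ovaries lay below the follicular median, yet follicular phase replicate 4 was at the low end of the luteal range. The log2 fold change was -0.53, with a 95% interval from -1.14 to 0.07 (limma adjusted p = 0.134). Without follicular phase replicate 4 it was -0.75 and passed the test (adjusted p = 0.0260).

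LGR5 (gene 102172413), the R-spondin receptor, was the lowest of the 8 genes and did not pass the test. Follicular phase replicates 1 to 5 had an FPKM of 0.332, 0.145, 0.201, 0.295 and 0.112. Luteal phase replicates 1 to 5 had 0.186, 0.124, 0.245, 0.275 and 0.170. The phases overlapped almost wholly, and the log2 fold change was -0.05, with a 95% interval from -0.59 to 0.49 (limma adjusted p = 0.882). Of its 2 transcripts, XM_013963635.2 was listed at 0 in every ovary but follicular phase replicate 4, at 0.0596.

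Ratios of genes inside an ovary do not depend on how the libraries were scaled, and 6 were tested by exact permutation of the 10 ovaries, two-sided, with adjustment over the 6. The ratio of CDH1 to CDH2, which is N-cadherin and the more abundant of the pair, was 0.0454 to 0.176 in luteal phase ovaries and 0.0133 to 0.0276 in follicular phase ovaries. The phases did not overlap, and the difference in mean log2 ratio was 2.28 (exact permutation p = 0.00794, adjusted p = 0.0476), where no smaller p can be had with 5 ovaries a phase. The ratio of EPCAM to CDH1 was 0.259 to 1.28 in luteal phase ovaries and 0.849 to 2.99 in follicular phase ovaries, with 4 of 5 luteal phase ovaries below every follicular phase ovary. Its difference was -1.84 on the log2 scale (exact permutation p = 0.0159, adjusted p = 0.0476). This adjusted p rose to between 0.0635 and 0.0952 in 8 of the 10 repeats that left out 1 ovary, the exceptions being luteal phase replicate 3 and follicular phase replicate 4. For CDH1 to CDH2 the difference was 2.07 to 2.56 in these repeats, and its exact adjusted p was 0.0952 without follicular phase replicate 1, 3 or 5 and 0.0476 in the others. The phases did not overlap in any of these repeats, and with so few ovaries the exact p can take only coarse steps.

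**Figure D4:**
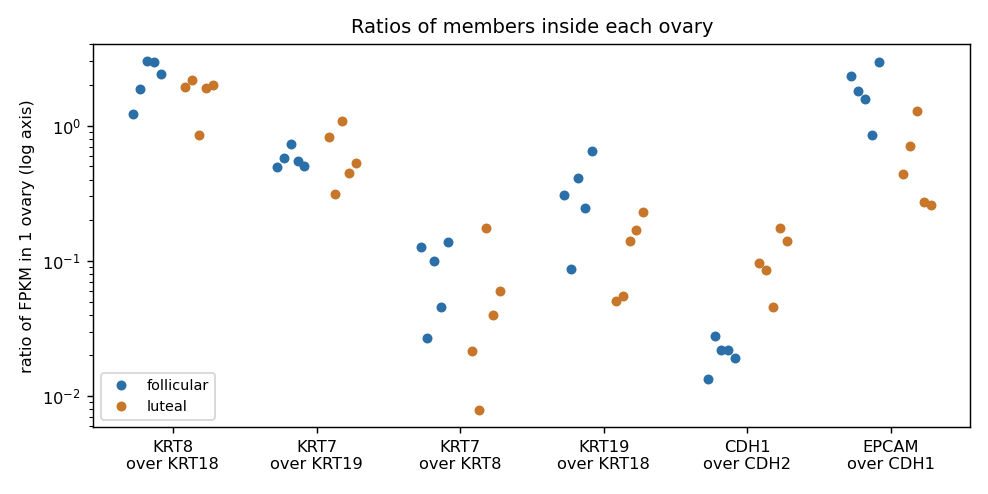
Ratio of the FPKM of 2 genes in each ovary (vertical log axis, 1 point per ovary, blue for follicular and orange for luteal). The phases are separate for CDH1 over CDH2, nearly separate for EPCAM over CDH1, and overlap for the keratin ratios.

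The keratin ratios did not pass the test. KRT8 over KRT18 had a luteal phase median of 1.95 and a follicular phase median of 2.40 (exact permutation p = 0.365, adjusted p = 0.438). Luteal phase replicate 3 was the single ovary with less KRT8 than KRT18, at 0.859. KRT7 over KRT19 had medians of 0.527 and 0.545 (exact permutation p = 0.929, adjusted p = 0.929). KRT7 over KRT8 had medians of 0.0399 and 0.0999 (exact permutation p = 0.310, adjusted p = 0.438). KRT19 over KRT18 had medians of 0.139 and 0.308 (exact permutation p = 0.0794, adjusted p = 0.159), and it passed without follicular phase replicate 2 (difference -1.80, exact permutation, adjusted p = 0.0476).

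Related genes were read from lists, each described by its calls. Of 20 other genes known from the ovarian surface or from mesothelium, 15 were tested and 11 were called, 5 higher and 6 lower in the luteal phase, with a median log2 fold change of -0.48. Over all genes 43.7% were called, 15.9% higher and 27.8% lower. The 11 calls became 9 after a shift to a common median and 8 on the TPM scale, and ranged from 9 to 12 without 1 ovary. MSLN, mesothelin, averaged 7.59 ± 2.90 FPKM in luteal phase ovaries and 1.53 ± 0.528 in follicular phase ovaries (SD, n = 5 each) and rose by 2.23 on the log2 scale (limma adjusted p = 0.000232). EFEMP1, an extracellular matrix protein, rose by 1.98, ALDH1A1, a retinaldehyde dehydrogenase, by 1.87 and CALB2, calretinin, by 1.70 on the log2 scale. WT1, a transcription factor of mesothelium and of gonadal somatic cells, fell from 21.8 ± 3.75 to 15.2 ± 3.34 (adjusted p = 0.0169). BNC1, basonuclin, changed by -1.02, EMX2, a homeobox factor, by -1.02 and UPK1B, a uroplakin, by -0.96. Of these BNC1 was near the floor, at a mean FPKM of 0.099 in luteal and 0.308 in follicular phase ovaries. Its follicular phase values alone met the filter. Like the 8 genes themselves, the list was divided in direction.

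Of 10 adherens junction genes tested, 6 fell and 1 rose, beside 27.8% of all genes lower and 15.9% higher. The 7 calls became 5 after a shift to a common median and on the TPM scale. CDH3, P-cadherin, changed by -1.13 on the log2 scale and CDH2 by -1.01, from 42.0 ± 6.42 FPKM in the follicular phase to 20.8 ± 2.58 in the luteal phase (SD, n = 5 each; limma adjusted p = 7.65e-05). NECTIN1, a nectin, changed by -1.01 and JUP, plakoglobin, by -0.67. CDH1 was thus higher in the luteal phase while CDH2 and CDH3 were lower. Of 15 tight junction and polarity genes tested, 5 fell, 1 rose and 9 were not called. CGN, cingulin, was at -1.04, OCLN, occludin, at -0.65 and PARD6B at -0.65. CRB3 was at -1.15 but near the floor, with a mean FPKM of 0.0612 in luteal and 0.251 in follicular phase ovaries. Its follicular phase values alone, at 0.157 or more, met the filter. The 6 calls of this list became 5 with a minimum FPKM of 0.5. Of 6 desmosome and cytolinker genes tested, 3 were not called, DSG2, a desmosomal cadherin, fell by 1.63 and PPL, periplakin, by 0.70, while PKP4 rose by 0.37. These 3 calls became 1 with a minimum FPKM of 0.5. DSG2 averaged 0.177 FPKM in luteal and 0.723 in follicular phase ovaries, and PPL 0.202 and 0.395.

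**Figure D5:**
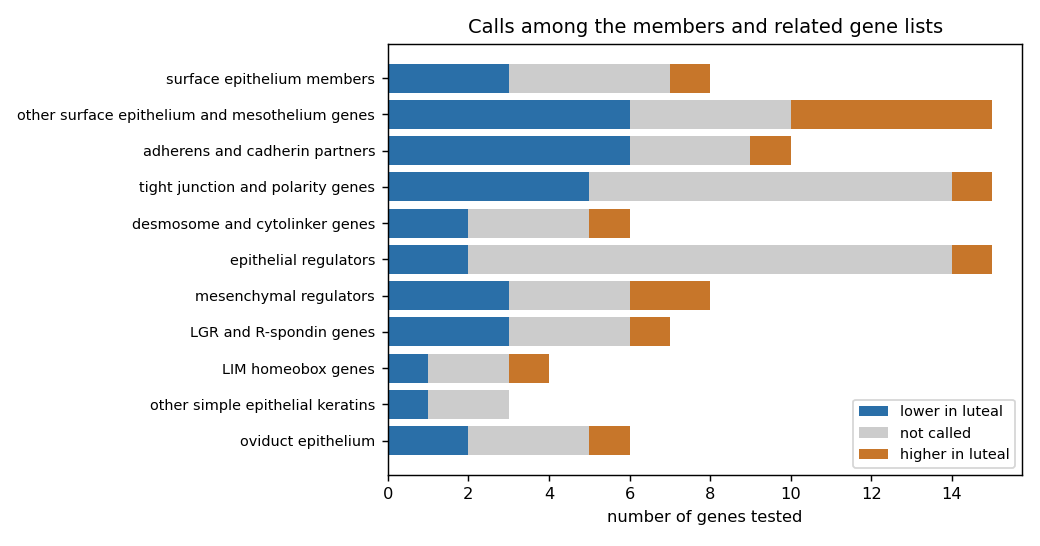
Number of genes tested (horizontal axis) in the set of 8 and in 10 related lists, divided into genes called lower in the luteal phase (blue), not called (grey) and called higher (orange). The set of 8 has 3 lower and 1 higher, and the list of other surface epithelium and mesothelium genes has 6 lower and 5 higher.

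Of 15 epithelial regulators tested 3 were called, beside 43.7% of all genes. The 1 that rose was GRHL1, a grainyhead transcription factor, from 1.27 ± 0.313 to 5.45 ± 1.54 FPKM (SD, n = 5 each; log2 fold change 2.00, limma adjusted p = 4.40e-05). ESRP1, an epithelial splicing factor (-1.0), and ELF3, an ETS factor (-0.94), fell. ELF3 was near the floor, at a mean FPKM of 0.0866 in luteal and 0.277 in follicular phase ovaries. Its follicular phase values alone met the filter. The count of 3 called was 1 with a pseudocount of 1, with a minimum FPKM of 0.5, on the TPM scale, and without luteal phase replicate 1 or 4 or follicular phase replicate 5, and it was 5 without luteal phase replicate 3. Of 8 mesenchymal regulators 2 rose and 3 fell, beside 15.9% of all genes called higher and 27.8% called lower. SNAI1, a repressor of CDH1, rose by 1.26 and FN1, fibronectin, by 0.61, while ZEB1, another repressor of CDH1, changed by -0.78 and VIM, vimentin, by -0.54. SNAI2, related to SNAI1, fell by 0.48 (adjusted p = 0.00314), and ZEB2, related to ZEB1, was not called, at 0.08. SNAI1 averaged 1.25 FPKM in luteal and 0.438 in follicular phase ovaries, beside 20.5 and 28.5 for SNAI2.

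Of genes related to LGR5, LGR4, a further R-spondin receptor, averaged 20.4 ± 9.30 FPKM in luteal phase ovaries and 10.4 ± 1.35 in follicular phase ovaries (SD, n = 5 each; log2 fold change 0.85, limma adjusted p = 0.0223), far above LGR5. LGR6 fell by 0.60 on the log2 scale (limma adjusted p = 0.0461). It was near the floor, at a mean FPKM of 0.0492 in luteal and 0.124 in follicular phase ovaries, and passed the filter mainly through the latter. RSPO3, an R-spondin, changed by -1.49 (adjusted p = 0.00410) and ZNRF3, a ubiquitin ligase that R-spondins inhibit, by -0.95 (adjusted p = 0.000417). In this list of 8 genes, 7 were tested, 3 fell and 1 rose, beside 27.8% of all genes lower and 15.9% higher, shares that also stand beside the counts of LIM homeobox genes and keratins that follow. The count called was 2 in place of 4 without luteal phase replicate 4. It was 3 with a pseudocount of 1, with a minimum FPKM of 0.5, after a shift to a common median and on the TPM scale. Of the other LIM homeobox genes 4 of 11 were tested, and LHX6 rose by 1.00 (adjusted p = 0.000324) while LHX8, an oocyte factor, fell by 1.43 (adjusted p = 0.0391), the direction of LHX9. The count of LIM homeobox genes called was 1 in place of 2 without luteal phase replicate 1, 4 or 5 or follicular phase replicate 1 or 5. Of 12 further keratins 3 were tested, and KRT10 fell from 8.38 ± 0.348 to 5.55 ± 0.614 (log2 fold change -0.59, adjusted p = 0.000507).

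Markers of several other cell types differed between the phases, beside 43.7% of all genes called. All 9 luteal cell markers tested rose, and they summed to 6374 to 8550 FPKM in luteal phase ovaries and to 174 to 229 in follicular phase ovaries. Of 10 granulosa cell markers 5 fell and 1 rose, with sums of 288 to 1126 in luteal and 461 to 1714 in follicular phase ovaries. These 6 calls became 10 when the replicate number was added to the fit as a block. Of 9 oocyte markers 6 fell, with sums from 8.63 to 20.3 and from 16.7 to 48.3. All 6 smooth muscle markers fell, with sums from 545 to 977 and from 1192 to 1496, and 6 of 7 endothelial markers rose, with sums from 255 to 323 and from 148 to 177. Of 8 stroma markers 3 rose and 1 fell, with sums from 3430 to 5728 and from 2668 to 3785. Of 6 leukocyte markers 1 rose, with sums from 75.4 to 88.6 and from 37.9 to 87.8. That count was 3 without luteal phase replicate 5 or follicular phase replicate 5, and 2 under each of the 3 rescalings. In luteal phase replicate 3 the luteal cell (6374) and granulosa cell (288) sums were the lowest of the phase. Its oocyte (20.3), stroma (5728) and smooth muscle (977) sums were the highest, and its endothelial (296) and leukocyte (75.41) sums lay inside the range. The part of these cell types in the differences of LHX9, KRT19, KRT7 and CDH1 was not tested.

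Oviduct epithelium shares keratins, EPCAM and CDH1 with the ovarian surface. Of its 10 markers 6 were tested, 2 fell and 1 rose, close to the 43.7% called among all genes. Their summed FPKM was 6.24 to 8.60 in luteal and 8.91 to 9.99 in follicular phase ovaries. TPPP3 made up most of it, at 5.63 ± 0.725 and 7.98 ± 0.503 (SD, n = 5 each). PAX8 was at 0.192 ± 0.108 and 0.213 ± 0.0778, FOXJ1 was below the filter and PIFO was listed at 0 in all ovaries. In follicular phase replicate 2, where KRT8 and KRT18 stood apart, the oviduct sum (8.91), the stroma sum (2668), the endothelial sum (148), the leukocyte sum (37.9), the LGR and R-spondin sum (41.2), the sum of the other keratins (8.74), the mesenchymal regulator sum (1245) and the sum of the other surface genes (321) were the lowest of the phase. The adherens junction sum (443), the tight junction sum (115) and the smooth muscle sum (1496) were the highest. Follicular phase replicate 1 was nearly equal for the other keratins (8.746, beside 8.743) and for the adherens junction genes (442.6, beside 443.1). The luteal cell (210), granulosa cell (776), oocyte (20.9), epithelial regulator (115), desmosome (27.0) and LIM homeobox (3.27) sums lay inside the range. Their part in the keratin values was not tested.

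Over the 10 ovaries, again centred on phase means, the genes most like each of the 8 were picked as the highest r among 15358, so high values are a product of that choice and carry no test. KRT8 was most like SRSF3 (r = 0.99), a splicing factor, and PLRG1 (0.97). KRT18 was most like TMEM185B (0.97) and METTL1 (0.96), KRT19 like GSTK1 (0.96) and SDE2 (0.95), and KRT7 like EFCC1 and IGFBP4 (0.96 each). CDH1 was most like ACO1 (0.96) and SLC35F5 (0.95), LHX9 like MVB12B and GLT8D2 (0.95 each), EPCAM like CSTA (0.96) and GABARAPL1 (0.94), and LGR5 like RNFT2 (0.90) and MYB (0.88). In follicular phase replicate 2, SRSF3 was at 209 FPKM, beside a phase mean of 144 ± 38.1 (SD, n = 5), and METTL1 was at 13.7, beside 7.34 ± 3.6. No gene appeared in the pair of more than 1 of the 8.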

How the data were processed

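Ribosomal RNA-depleted, strand-specific libraries of 10 ovaries were sequenced as paired ends. Per the methods, the authors used HISAT2 for alignment, StringTie for assembly and Cuffdiff for expression, and the deposited values are FPKM per transcript, 1 column per ovary. The genome build is not named in the sources used here. Columns were assigned to ovaries by phase and replicate number. FPKM of protein-coding transcripts were summed by symbol and analysed as log2(FPKM + 0.1) with limma 3.58.1 (lmFit, eBayes with trend) in R 4.3.3, and code was tested on simulated data. List symbols absent from the table were matched through RefSeq synonyms. Exact permutation tests used Python 3.11.15 with numpy 2.4.6. The 8 genes and all lists were chosen with earlier results of these data known. Text names the 8 genes, up to 4 called genes per list with the largest change, the first 3 markers of a list where a level is given, and the 2 genes most like each. KRT5, LOC102185150, PIFO, BNC1, EMX2, UPK1B, SNAI2 and ZEB2 were named after their values were seen. Alternatives were other pseudocounts, filters, scalings, eBayes without trend, a replicate block, the most abundant transcript and leaving out each ovary.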

Additional observations from a re-analysis of the deposited data

Results flagged for a closer look

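KRT8 in follicular phase replicate 2 had an FPKM of 26.6, far from the other follicular phase ovaries, at 4.79 to 8.48. KRT18 in the same ovary had an FPKM of 14.3, while the others were at 2.52 to 3.94. The ratio of KRT8 to KRT18 in luteal phase replicate 3 was 0.859, far from 1.91 to 2.17 in the other luteal phase ovaries. Dixon's test with a critical value of 0.71 was applied to 32 groups of 5 ovaries, and chance alone marks about 1 in 20 such groups. The high values of KRT8 and KRT18 come from the same ovary and are not independent of each other.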

How the results depend on the processing

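In the fits over genes, LHX9, KRT19 and CDH1 kept their direction and call under every alternative run, including each fit without 1 ovary, where their adjusted p was at most 0.00228, 0.0163 and 0.0257. The number of the 8 genes called stayed between 3 and 5. KRT7 was also lost without the filter (adjusted p = 0.0532) and with the most abundant transcript (0.0623), at an unchanged log2 fold change of -0.92. The 4 called transcripts, which belong to LHX9, KRT19 and CDH1, became 2 with a replicate block and ranged from 2 to 5 without 1 ovary. The deviations of same-numbered ovaries of the phases had an r of 0.03 to 0.20. Such values cannot decide whether the numbers pair the ovaries, which is not known. Under the block the 8 genes kept their calls, while the calls over all genes went from 6711 to 7020. The 1 pair of genes called became 0 after a shift to a common median. Without 1 ovary, the log2 ratio differences ranged from 2.07 to 2.56 for CDH1 over CDH2, from -2.19 to -1.61 for EPCAM over CDH1 and from -1.80 to -1.08 for KRT19 over KRT18. Of list counts, desmosome genes went from 3 to 1 with a minimum FPKM of 0.5, epithelial regulators from 3 to 1 with that minimum, a pseudocount of 1 or TPM and to 5 without trend, LIM homeobox genes from 2 to 1 with a pseudocount of 1, TPM or the block, granulosa cell markers from 6 to 10 with the block, and leukocyte markers from 1 to 2 under each rescaling. Without 1 ovary, these ranged from 1 to 5 for epithelial regulators, from 1 to 3 for LIM homeobox genes, from 1 to 3 for leukocyte markers and from 2 (without luteal phase replicate 4) to 5 for LGR and R-spondin genes. Of the calls over all genes 36.3% were higher in the luteal phase, beside 48.8% after a shift to a common median and 52.5% on the TPM scale. The causes were not tested. The read depth of each ovary is unknown, so counting precision was not measured.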
